A study of Homo sapiens with 6 samples.

Results

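The zinc-finger genes of chromosome 19 whose symbol is ZNF followed by a number were followed through decitabine (DAC) treatment of human mammary cell lines. They were taken from the MDA-MB-231 table by symbol and by a locus on chromosome 19, which gave 237 genes with 406 transcripts among 23617 symbols, and the values of all transcripts of a symbol were summed. Symbols with a letter after the number (ZNF585A, for example) and zinc-finger genes with other names (ZFP30, HKR1) are not among them.

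The study asked which genes are re-expressed when DNA methylation is blocked in breast cancer cells. MDA-MB-231 is a line from a human breast cancer, sequenced here as 1 untreated library and 1 library of cells given 10 µM DAC every day and collected at 72 h. HMLER is a line of human mammary cells transformed in vitro, with 2 untreated libraries and 2 libraries of cells given the same dose for the same time. According to the methods, RNA of several extractions was pooled for each library, and 1 label writes MDA-MB-232 for the untreated MDA-MB-231 library, whose title has MDA-MB-231. No genetic change separates treated from untreated cells of a line.

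Zinc-finger proteins of this family bind DNA through tandem C2H2 fingers, short loops held by a zinc ion through a pair of cysteines and a pair of histidines. Most of them carry a KRAB box near the start of the protein, which recruits the corepressor TRIM28 and with it the histone methyltransferase SETDB1, and many bind transposable elements. The genes arose by repeated duplication and stand side by side in clusters along chromosome 19, and several are known to carry methylated promoters in tumours. Decitabine is built into DNA in place of deoxycytidine, traps DNA methyltransferases, and lets methylation fall as cells divide.

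The values are the authors' FPKM, fragments scaled by transcript length and by the number of mapped fragments. MDA-MB-231 has a single library per condition, so its differences have no replicate check, and the HMLER values are 1 number per condition over 2 libraries, so that no SD, test or p-value is given anywhere. The summed FPKM of all symbols was 589238 in the untreated and 480455 in the DAC library of MDA-MB-231. Low values fell on whole multiples of what a read is worth, 0.0235 FPKM untreated and 0.0236 FPKM after DAC per kilobase of effective length, and reads given below were inferred from these steps. Counting intervals (95%, exact) cover counting error only. VIM and CD44, which mark mesenchymal-like breast cancer cells, were present in both MDA-MB-231 libraries at 3066 and 1134 FPKM for VIM and at 212 and 139 FPKM for CD44. ESR1, PGR and CDH1 were at 0 in the untreated library, whereas EPCAM, listed as low or absent in this line, stood at 7.90 FPKM untreated and 9.78 FPKM after DAC. HMLER markers could not be checked, because its table holds only transcripts that were higher after DAC.

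The promoters below are those of 4 of the 6 genes with the highest DAC/untreated ratio, and of ZNF675, 1 of the 6 with the lowest, so that their CpG sites can be seen. Each runs from 250 bases before to 50 bases after the annotated start, on the minus strand of chromosome 19 for all of them, from RefSeq (GRCh38.p14), and the capitals mark every CG.
ZNF560 (chr19:9498567-9498866): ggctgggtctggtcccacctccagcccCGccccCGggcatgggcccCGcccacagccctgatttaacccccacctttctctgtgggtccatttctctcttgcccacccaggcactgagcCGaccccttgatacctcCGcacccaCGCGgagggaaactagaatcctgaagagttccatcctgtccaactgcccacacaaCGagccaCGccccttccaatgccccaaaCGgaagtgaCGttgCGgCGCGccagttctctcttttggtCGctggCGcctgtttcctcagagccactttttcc
ZNF582 (chr19:56393485-56393784): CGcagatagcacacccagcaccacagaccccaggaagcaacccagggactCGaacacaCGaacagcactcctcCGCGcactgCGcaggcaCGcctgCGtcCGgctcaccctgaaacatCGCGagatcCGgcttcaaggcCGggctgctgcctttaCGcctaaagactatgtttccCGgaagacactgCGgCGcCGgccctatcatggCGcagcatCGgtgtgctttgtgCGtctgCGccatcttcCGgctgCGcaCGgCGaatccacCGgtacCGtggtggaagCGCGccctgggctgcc
ZNF699 (chr19:9309789-9310088): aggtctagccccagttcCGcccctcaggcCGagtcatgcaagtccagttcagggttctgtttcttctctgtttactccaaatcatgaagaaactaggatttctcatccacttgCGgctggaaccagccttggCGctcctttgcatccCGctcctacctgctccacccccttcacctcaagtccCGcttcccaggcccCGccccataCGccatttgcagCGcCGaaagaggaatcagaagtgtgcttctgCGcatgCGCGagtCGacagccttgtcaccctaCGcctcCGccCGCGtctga
ZNF404 (chr19:43883915-43884214): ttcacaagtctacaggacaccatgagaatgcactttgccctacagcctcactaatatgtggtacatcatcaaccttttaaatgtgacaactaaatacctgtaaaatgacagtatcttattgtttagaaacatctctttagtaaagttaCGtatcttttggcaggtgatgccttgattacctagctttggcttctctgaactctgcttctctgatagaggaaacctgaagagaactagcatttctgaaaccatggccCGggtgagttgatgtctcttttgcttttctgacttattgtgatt
ZNF675 (chr19:23687163-23687462): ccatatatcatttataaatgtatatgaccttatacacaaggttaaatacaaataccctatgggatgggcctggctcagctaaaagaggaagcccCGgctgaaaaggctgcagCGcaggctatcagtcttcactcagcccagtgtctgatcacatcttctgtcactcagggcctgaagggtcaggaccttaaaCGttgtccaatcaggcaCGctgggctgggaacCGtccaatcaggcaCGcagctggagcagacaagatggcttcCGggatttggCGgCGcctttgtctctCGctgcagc

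The promoter of ZNF582 holds 30 CG dinucleotides, that of ZNF699 18, that of ZNF560 16, that of ZNF675 10 and that of ZNF404 2. CG reads the same on both strands, and 95.8% of the 27305 promoters in the RefSeq table hold at least 1. A RefSeq promoter was found for 204 of the 237 genes, with a median of 20.5 CG. ZNF404 was the 1 gene of the 204 with no more than 2. So the windows of genes with high ratios included a window dense in CG and the poorest of the 204. The annotated start of ZNF404 falls on an ATG in the sequence above, so its window may not be the promoter in use. Methylation itself was not measured in these libraries.

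In MDA-MB-231, 8 of the 237 genes were at 0 in both libraries and 229 had a value. The mean of both libraries reached 0.5 FPKM for 189, which are the genes compared below, and the other 40 lay under it. Across the 189, the untreated library had a median of 2.37 FPKM and the DAC library 3.40 FPKM, against 11.5 and 10.9 FPKM for all symbols past the same filter, so these are genes of low expression. The summed FPKM of all 237 went from 841 to 993, while the sum over all symbols went the other way. In bulk RNA, a change in every cell and a change in a share of the cells cannot be told apart.

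DAC left 39 of the 189 genes (20.6%) at more than 2-fold their untreated level, where 11.2% of the 13015 symbols past the filter were. A single gene, ZNF20, was more than 2-fold lower (0.529%), against 4.76% of all symbols. The ratio was above 1 for 150 and below 1 for 39. The median log2 change was 0.37, with quartiles of 0.07 and 0.82, while the median over all symbols was -0.08. Most of the shift was modest, with 149 genes between 0.5-fold and 2-fold, 32 between 2-fold and 4-fold higher and 7 beyond 4-fold.

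The reads behind these values varied widely. The untreated library had a median of 317 reads per gene (0 to 8468) and the DAC library 443 (41 to 7331). The counting interval of the ratio lay above 1 for 117 genes, below 1 for 27 and across 1 for 45. All 39 genes counted as higher had an interval above 1, and 24 had one above 2. The wider bounds that Cuffdiff gives for the largest transcript were apart between the libraries for 4 of the 189 genes, ZNF560, ZNF542, ZNF430 and ZNF850. For ZNF430 and ZNF850 this held for that transcript alone, as the sum of ZNF430 was 2.43 FPKM untreated and 2.51 FPKM after DAC (1.03-fold) and that of ZNF850 3.70 and 5.37 FPKM (1.45-fold).

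**Figure D1:**
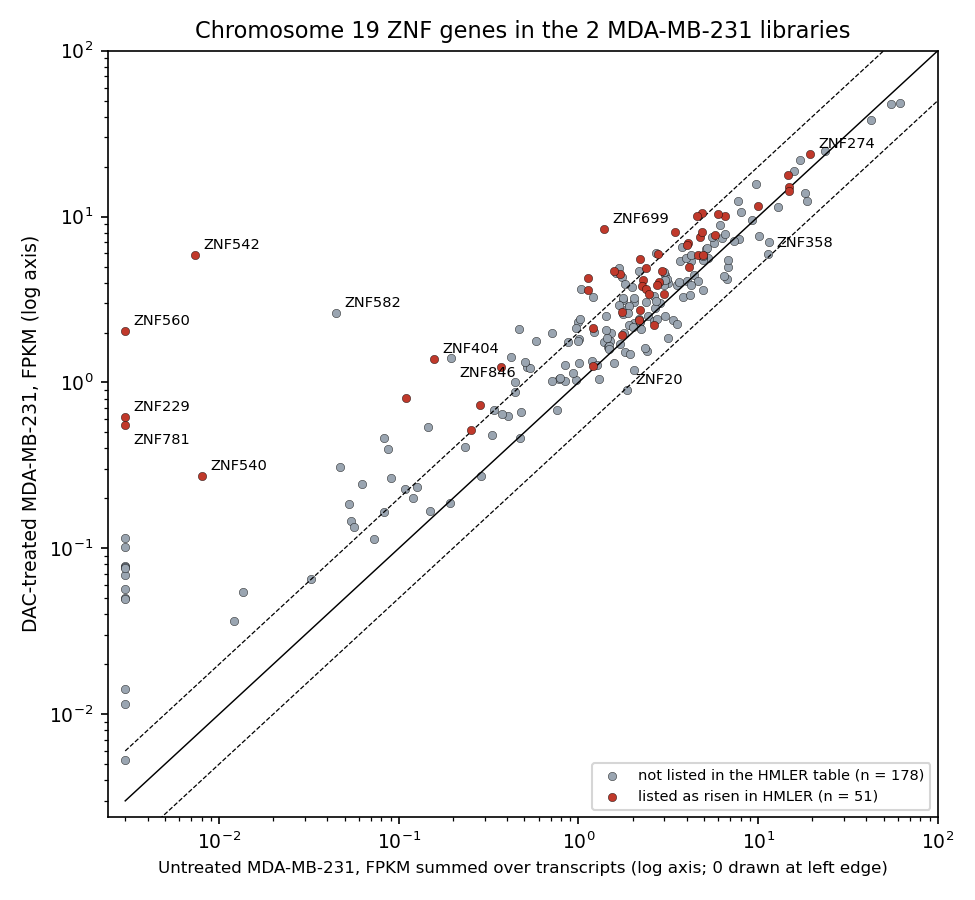
Summed FPKM of the 229 genes with a value in the untreated (horizontal) and DAC-treated (vertical) MDA-MB-231 library, both axes logarithmic with 0 drawn at the left edge; the solid line marks equal values, the dashed lines 2-fold. Red points are the 51 genes listed as higher in HMLER, and most points lie above the solid line, with ZNF560, ZNF542 and ZNF582 far above it.

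The largest differences belonged to genes with next to no reads in untreated cells. ZNF560 (19:9577031-9609292 in hg19, minus strand) was at 0 FPKM untreated and at 2.04 FPKM after DAC, from 0 and 224 reads, or at least 75.1-fold higher against a floor of 3 reads. ZNF542, annotated as a non-coding pseudogene of the family (56879468 to 56891197, plus strand), went from 0.00731 to 5.83 FPKM. It had 1 read untreated and 831 after DAC, a ratio of 797 with a counting interval of 143 to 31522. ZNF582, whose promoter is known to be methylated in cervical and oral cancers, overlaps ZNF542 on the other strand (56887215 to 56904907). It stood at 0.0448 FPKM untreated and 2.63 FPKM after DAC, from 4 and 233 reads, a ratio of 58.6 (22.6 to 217). The kit's strand handling was not stated, so reads of these overlapping genes cannot be told apart where they share bases.

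Below these, ZNF404 went from 0.158 to 1.38 FPKM (11 and 96 reads), a ratio of 8.78 (4.70 to 18.2). ZNF846 went from 0.195 to 1.41 FPKM (16 and 115 reads), a ratio of 7.23 (4.27 to 13.1). ZNF699 differed from all of these in having a clear untreated level, 1.39 FPKM from 112 reads, and reached 8.38 FPKM from 671 reads, a ratio of 6.03 (4.93 to 7.43). ZNF878 closed the group beyond 4-fold with 0.467 FPKM untreated and 2.11 FPKM after DAC, a ratio of 4.51 (3.04 to 6.89).

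The next ratios were smaller. ZNF570 went from 1.13 to 4.24 FPKM (3.77-fold), ZNF345 from 1.04 to 3.65 FPKM (3.51-fold, but 2.13-fold in its largest transcript alone) and ZNF433 from 0.421 to 1.42 FPKM (3.36-fold). ZNF571 went from 0.372 to 1.24 FPKM (3.34-fold) and ZNF607 from 1.13 to 3.60 FPKM (3.19-fold). Of these, ZNF570, ZNF345, ZNF571 and ZNF607 lie in the same cluster, described below. All 12 genes with the highest ratio except ZNF542 and ZNF345 encode a KRAB box. So do 156 of the 187 genes past the filter with a coding sequence (83.4%), so the box does not set the 12 apart.

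At the other end, ZNF20 stood at 1.87 FPKM untreated and 0.901 FPKM after DAC, from 227 and 109 reads, a ratio of 0.483 (0.381 to 0.609). It crosses the 2-fold line only just, and did not when the ratio was divided by the median ratio of all symbols or when 0.1 FPKM was added to both values. ZNF358 was at 11.4 and 5.98 FPKM (0.526-fold), ZNF792 at 2.03 and 1.19 FPKM (0.585-fold) and ZNF675, known to bind TRAF6 and damp its signalling, at 3.14 and 1.85 FPKM (0.590-fold). ZNF507 was at 11.5 and 6.999 FPKM (0.607-fold) and ZNF480 at 6.71 and 4.199 FPKM (0.626-fold). Their counting intervals all lay below 1.

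The most abundant genes of the set moved little. ZNF787 stood at 61.9 FPKM untreated and 48.4 FPKM after DAC, ZNF146, a protein made almost wholly of fingers, at 55.0 and 47.9 FPKM, and ZNF428 at 42.5 and 38.4 FPKM, ratios of 0.781, 0.871 and 0.903. ZNF580 was at 23.4 and 24.8 FPKM (1.06-fold) and ZNF584 at 17.0 and 22.0 FPKM (1.30-fold). ZNF274, which is known to bind the 3′ ends of other zinc-finger genes and to bring SETDB1 there, stood at 19.5 and 23.8 FPKM (1.22-fold). No KRAB box was found in the first 4 of these genes.

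The share of genes above 2-fold depended on the level, and so did its distance from the background. Among the genes with a mean of 0.5 to 2 FPKM, 19 of 59 (32.2%) were more than 2-fold higher, against 38.6% of all symbols in that range, so that the zinc-finger genes were not in excess there. Between 2 and 5 FPKM it was 17 of 78 (21.8%) against 16.2%, and at 5 FPKM or more 3 of 52 (5.77%) against 3.76%. The median log2 change was 0.52 against 0.55 for all symbols in the lowest range, 0.46 against 0.12 in the middle range, and 0.25 against -0.17 in the highest. With no filter, 70 of 229 genes (30.6%) were above 2-fold, where 27.9% of all symbols with a value were. 15 genes had no untreated reads but a DAC value, and 0 the reverse. The same was not counted over all symbols, so it cannot be called a trait of these genes.

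ZNF genes on other chromosomes had lower values. Of 193 past the filter, 12 (6.22%) were more than 2-fold higher and 4 lower, with a median log2 change of 0.08, and in each range of level both their share and their median lay below those of the chromosome 19 genes. The other genes of chromosome 19 reached the same share above 2-fold, 160 of 779 (20.5%). Their median was 0.08, below the 0.37 of the zinc-finger genes, and 19 of them (2.44%) were lower, against 1 (0.529%) of the zinc-finger genes. This order of the medians did not hold at every level. At 0.5 to 2 FPKM the other chromosome 19 genes had a median of 1.97 against 0.52, and 66.4% of 137 were above 2-fold. At 2 to 5 FPKM their median was 0.71 against 0.46, and 37.5% of 88 were above 2-fold against 21.8%. Only at 5 FPKM or more was the zinc-finger median the higher, 0.25 against -0.06. These are counts over genes of 1 pair of libraries, and no test was made of the differences between groups.

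**Figure D2:**
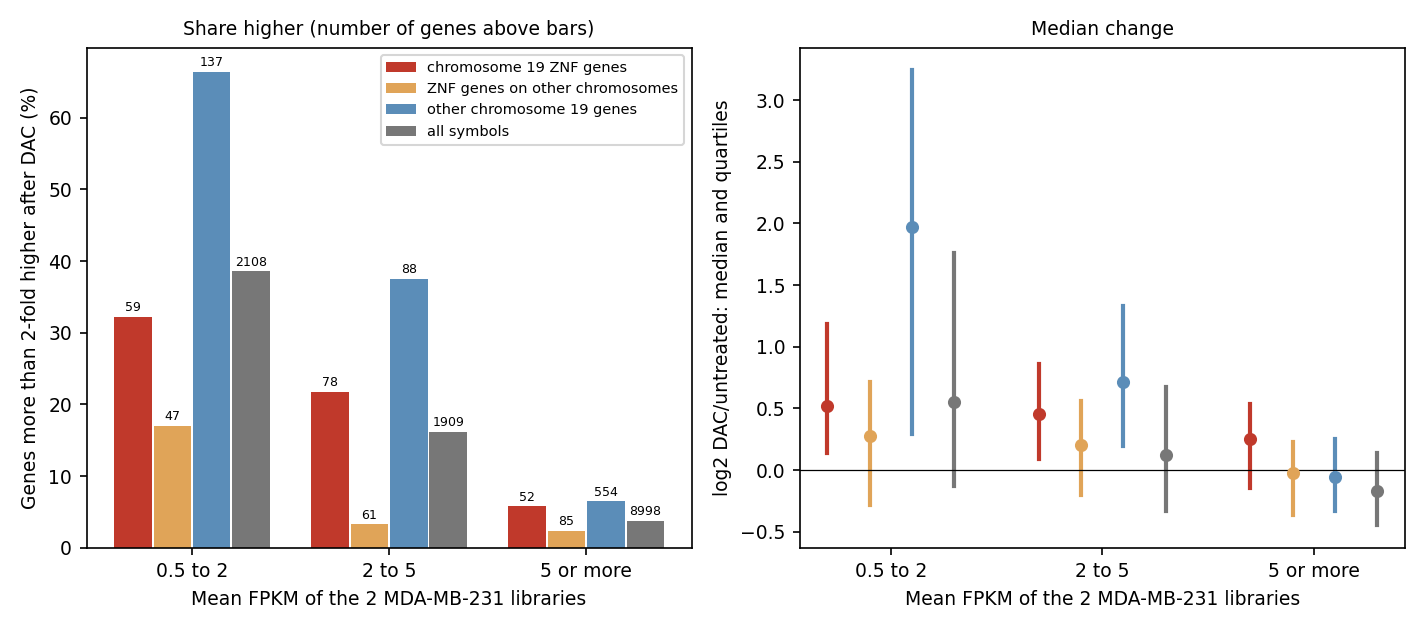
Left, percentage of genes more than 2-fold higher after DAC in MDA-MB-231 in 3 ranges of mean FPKM, with the number of genes above each bar; right, median (point) and quartiles (line) of the log2 ratio. The chromosome 19 ZNF genes (red) lie below all symbols (grey) in the left panel at 0.5 to 2 FPKM, and above them in both panels at 2 FPKM or more.

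The HMLER table lists transcripts that were at least 2-fold higher after DAC by the authors' criteria, so it can say which genes are listed but not which fell. 51 of the 237 genes are in it (21.5%), against 7.85% of all symbols, 31 of 235 ZNF genes elsewhere (13.2%) and 143 of 1391 other chromosome 19 genes (10.3%). These shares count symbols at every level, including those with no value in MDA-MB-231. By mean level in MDA-MB-231, no excess was seen at 0.5 to 2 FPKM, with 11.9% listed against 15.6% of all symbols. At 2 to 5 FPKM 28.2% were listed against 15.4% of all symbols, but 30.7% of other chromosome 19 genes were. At 5 FPKM or more it was 32.7%, against 8.61% of all symbols and 8.48% of other chromosome 19 genes. HMLER values of a gene sum its listed transcripts only, while its MDA-MB-231 values sum all of its transcripts. Levels of genes with several transcripts are thus not like for like between the lines. The HMLER ratio of the listed zinc-finger genes ran from 2.03 to 63.0 with a median of 2.64, below the median of 3.62 over all that is listed. The untreated HMLER value was under 1 FPKM for 24 of the 51 and had a median of 1.16 FPKM, and the DAC value a median of 3.28 FPKM. The ratio passed 4 for 11 genes, led by ZNF560, ZNF781, ZNF540 and ZNF256.

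Most genes listed in HMLER were also higher in MDA-MB-231, mostly by less than 2-fold. Of the 46 listed genes past the filter, 44 had a MDA-MB-231 ratio above 1, with a median log2 change of 0.71, while the 143 not listed had a median of 0.32. Among all 189 genes 79.4% had a ratio above 1. The share above 1 was not counted over all listed symbols, so it cannot be called a trait of these genes. Of the 39 genes more than 2-fold higher in MDA-MB-231, 16 (41.0%) were listed in HMLER, and of the 46 listed, 34.8% were more than 2-fold higher. Over all symbols these shares were 33.2% and 34.6%. Among genes that did not pass 2-fold in MDA-MB-231, 30 of 150 were listed, against 7.91% of all such symbols.

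The 16 genes above 2-fold in both lines make 8.47% of the 189, against 3.72% of all symbols past the filter. ZNF560 went from 0.0486 to 3.06 FPKM in HMLER (63.0-fold), and ZNF699 from 1.15 to 10.2 FPKM (8.85-fold). ZNF542 was already present in untreated HMLER cells at 0.787 FPKM and reached 3.74 FPKM (4.75-fold), unlike in MDA-MB-231. ZNF404 too started higher in HMLER, at 1.33 FPKM against 0.158 in MDA-MB-231, and reached 3.28 FPKM (2.47-fold).

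The other genes higher in both lines had ratios between 2 and 4 in each. ZNF571 went from 0.626 to 1.76 FPKM in HMLER, ZNF607 from 0.595 to 1.63 FPKM and ZNF790 from 0.331 to 1.05 FPKM. In MDA-MB-231, ZNF790 went from 2.19 to 5.56 FPKM (2.54-fold). The listed transcript alone went from 1.41 to 3.18 FPKM there for ZNF790, and from 0.473 to 1.01 FPKM for ZNF607. ZNF283 was at 1.71 and 4.52 FPKM in MDA-MB-231 and at 1.96 and 4.75 FPKM in HMLER, nearly the same levels in both lines. ZNF260 was at 3.46 and 8.09 FPKM in MDA-MB-231 (2.34-fold) and at 0.968 and 2.84 FPKM in HMLER (2.93-fold). ZNF461 was at 0.283 and 0.727 FPKM in MDA-MB-231 and at 0.683 and 1.58 FPKM in HMLER. ZNF841 had 4.57 and 10.1 FPKM in MDA-MB-231 and 1.88 and 4.95 FPKM in HMLER, and ZNF559 4.89 and 10.5 FPKM in MDA-MB-231 and 2.43 and 6.70 FPKM in HMLER. ZNF559 fell under 2-fold in MDA-MB-231, to 1.64-fold, when only its largest transcript was used. ZNF530, ZNF570, ZNF569 and ZNF577 complete the 16.

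**Figure D3:**
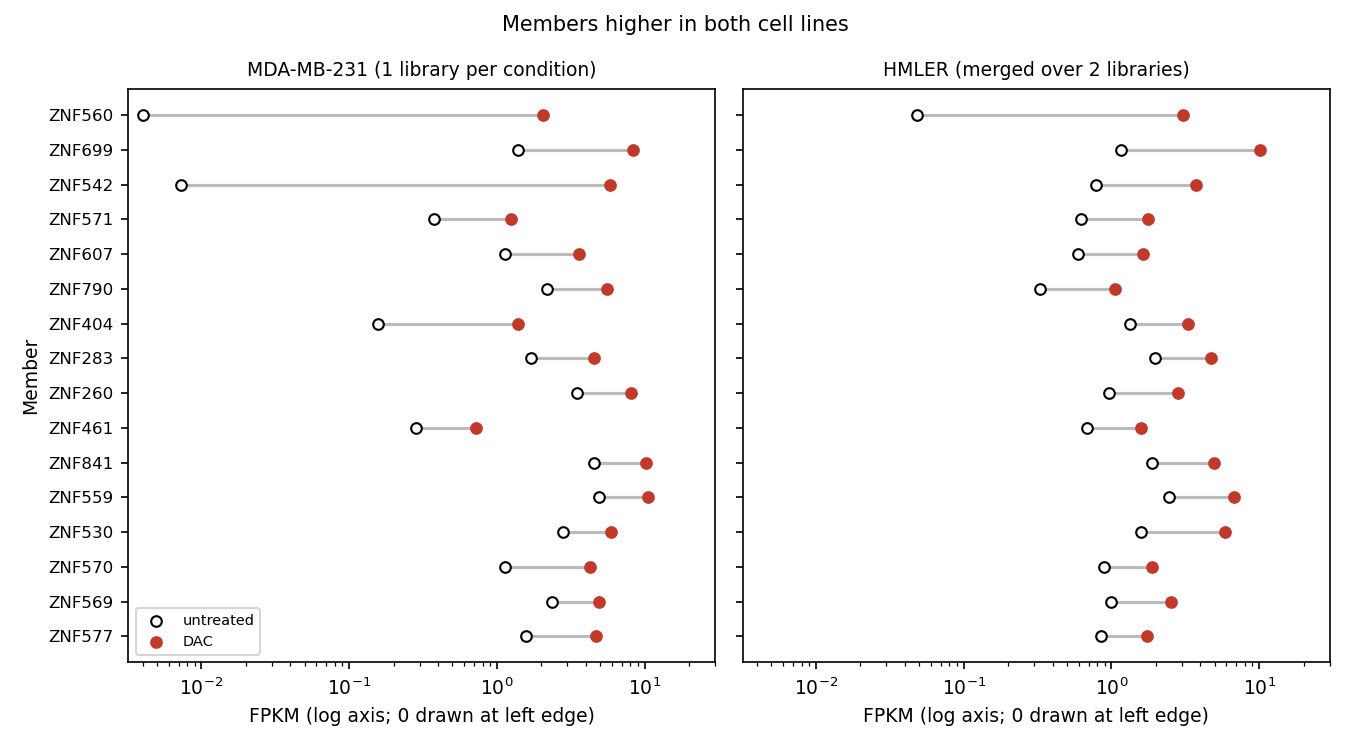
FPKM without (open) and with DAC (red) of the 16 genes more than 2-fold higher in both lines, left in MDA-MB-231 (1 library per condition) and right in HMLER (1 merged value per condition), on logarithmic axes with 0 drawn at the left edge. HMLER values sum listed transcripts only, MDA-MB-231 values all transcripts. ZNF560 and ZNF542 start near 0 in MDA-MB-231, whereas in HMLER ZNF560 alone starts under 0.1 FPKM.

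A few genes listed in HMLER stood apart. ZNF28 was at 0.590 and 2.80 FPKM in HMLER (4.74-fold) but at 2.62 and 2.23 FPKM in MDA-MB-231, a ratio of 0.848 (0.742 to 0.970). ZNF114 was at 1.81 and 10.3 FPKM in HMLER (5.69-fold) and at 14.8 and 14.2 FPKM in MDA-MB-231, a ratio of 0.955 (0.882 to 1.03). The listed transcript of ZNF28 alone was at 1.69 and 1.29 FPKM in MDA-MB-231. The listed transcripts of both genes thus had a higher untreated level in MDA-MB-231 than in HMLER. ZNF121 (1.02-fold), ZNF880 (1.03-fold) and ZNF181 (1.10-fold) also hardly differed in MDA-MB-231 as sums of transcripts. For ZNF181 the transcript listed in HMLER went from 0.0103 to 2.31 FPKM in MDA-MB-231 although the sum went only from 2.16 to 2.38 FPKM, so the transcript and the sum gave different ratios. ZNF274 had the same trait, with 1 listed transcript at 0.192 and 1.54 FPKM. Of the 54 listed transcripts, 26 had a ratio above 2 in MDA-MB-231, 51 above 1 and 3 below.

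Another 5 listed genes fell under the filter in MDA-MB-231. ZNF229 was at 0 and 0.620 FPKM, ZNF781 at 0 and 0.554 FPKM, and ZNF540 at 0.00799 and 0.273 FPKM there. In HMLER, ZNF781 went from 0.0485 to 1.21 FPKM (25.03-fold), ZNF540 from 0.118 to 1.43 FPKM (12.1-fold) and ZNF229 from 0.799 to 3.66 FPKM (4.58-fold). ZNF329 and ZNF665 are the others, at 0.110 and 0.802 FPKM and at 0.251 and 0.520 FPKM in MDA-MB-231. All 5 were thus higher after DAC in MDA-MB-231 too, at low levels, while the direction in HMLER was set by the listing. With no filter, 81.7% of the 229 genes with a value had a MDA-MB-231 ratio above 1, against 55.6% of all symbols.

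The genes fall into 16 stretches of chromosome 19 when a distance of more than 1 Mb between neighbouring starts ends a stretch. The stretch from 36673187 to 38270230 (hg19), between ZNF146 and ZNF573, held the most genes above 2-fold. Of its 24 genes, 20 passed the filter, 12 were more than 2-fold higher, 19 had a ratio above 1 and the median log2 change was 1.18. In HMLER 10 of the 24 were listed. Beside these and the counts below, 20.6% of the 189 genes and 11.2% of all symbols past the filter were above 2-fold. Listed in HMLER were 21.5% of the 237 genes and 7.85% of all symbols. At 0.5 to 2 FPKM 38.6% of all symbols were above 2-fold, and no test was made across stretches. The 12 lay between 0.283 and 3.46 FPKM untreated and between 0.727 and 8.09 FPKM after DAC, with ratios of 2.08 to 3.77.

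Within this stretch, ZNF565 went from 1.20 to 3.26 FPKM, ZNF529 from 2.70 to 6.05 FPKM and ZNF829 from 1.62 to 4.58 FPKM, and none of them is listed in HMLER. ZNF568 went from 0.997 to 2.30 FPKM and ZNF569, which overlaps ZNF570 on the other strand, from 2.37 to 4.92 FPKM. ZNF146 at the edge of the stretch, the most abundant gene in it, was the 1 gene past the filter with a ratio below 1. ZNF382, ZNF793, ZNF540 and ZNF781 fell under the filter and were all higher after DAC. Neighbours that are not in the set were mostly higher too, with 6 of 9 above 2-fold, among them LINC00665 (0.0307 and 1.73 FPKM), ZFP30 (2.46 and 7.76 FPKM) and ZNF585A (1.49 and 3.32 FPKM). The annotated spans of several genes here overlap on opposite strands, such as ZNF345 with ZNF790 and ZNF571 with ZNF540. Reads in bases that such genes share cannot be told apart without strand, and shared exon bases were not counted.

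**Figure D4:**
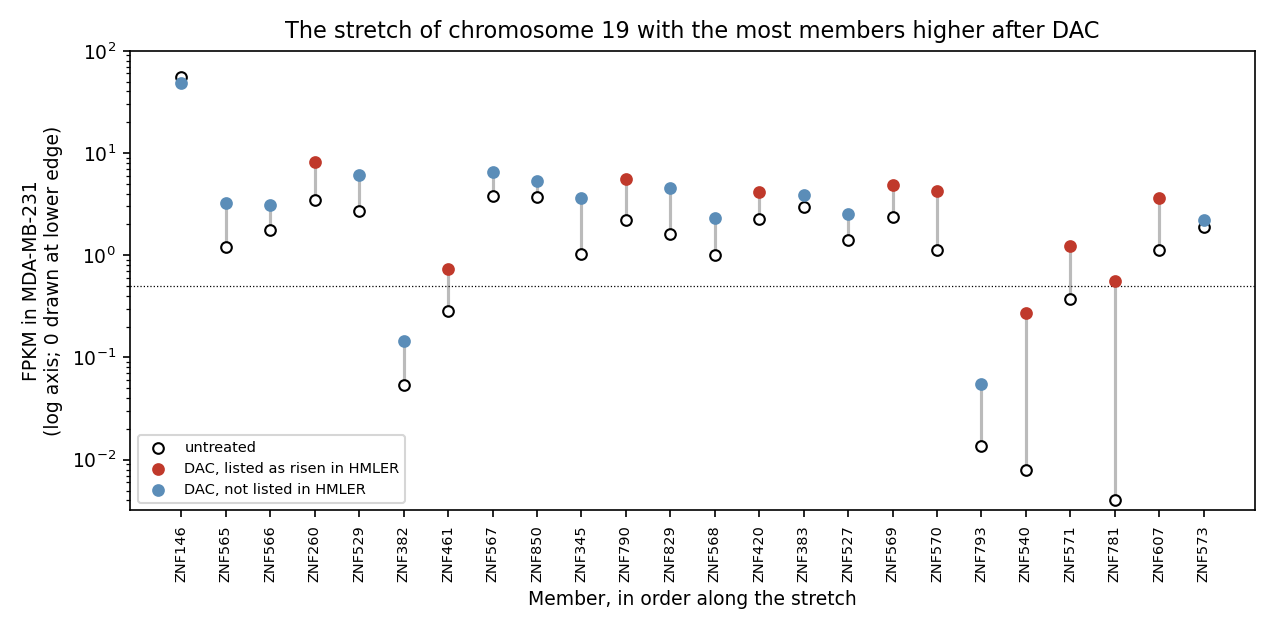
FPKM of the 24 genes of this stretch in untreated (open) and DAC-treated (filled) MDA-MB-231 cells, in their order on the chromosome, on a logarithmic axis with 0 drawn at the lower edge and a dotted line at 0.5 FPKM. Red marks the 10 genes listed in HMLER, and all genes but ZNF146 are higher after DAC.

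Other stretches held fewer genes above 2-fold. The stretch from 7069471 to 9879410 had 4 of 13 genes above 2-fold, all between ZNF317 and ZNF846 from 9251056 onward, ZNF699, ZNF559, ZNF560 and ZNF846. These 12 neighbours also hold all 9 HMLER-listed genes of the stretch, and all 10 of them past the filter had a ratio above 1. Between 44037340 and 45579688, 5 of 20 were above 2-fold and 19 had a ratio above 1 (median log2 0.68), and 9 of the 23 other genes there were above 2-fold as well. ZNF404, ZNF283, ZNF235, ZNF230 and ZNF221 are the 5, and 7 of its 23 genes are listed in HMLER.

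The largest stretch, from 55987699 to 58992597, had 6 of 51 genes above 2-fold, near the 11.2% of all symbols, and a median of 0.28. Of these, 4 lie close together, ZNF542 and ZNF582 with ZNF583 (1.67 and 4.90 FPKM) and ZNF470 (1.75 and 4.35 FPKM). With stretches ended at 0.3 Mb, a gap chosen after the data were seen, the one holding them ran from 56598732 to 57183123 and had 4 of 7 genes above 2-fold with a median of 1.32, beside 12 of 20 and 1.18 for the stretch of ZNF146 to ZNF573. Between 52074531 and 54083523, 3 of 29 were above 2-fold, a share also near that of all symbols. They were ZNF577, ZNF841 and ZNF616, while 12 of 38 genes are listed in HMLER. The cluster from 19779663 to 24312654 had 3 of 21 above 2-fold, a median of 0.18 and 1 of 33 genes listed in HMLER. The stretch from 11594242 to 12740676 had 5 of 22 above 2-fold, ZNF878, ZNF433, ZNF443, ZNF844 and ZNF491, of which 0 are listed in HMLER, and it also holds ZNF20.

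**Figure D5:**
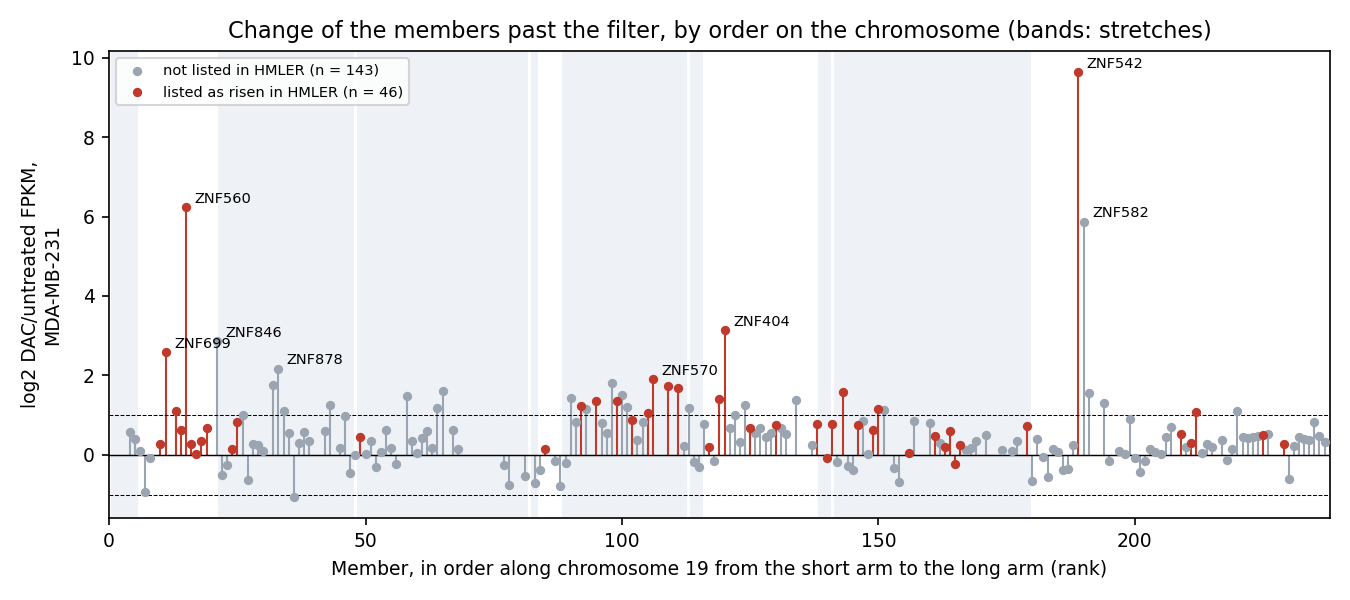
log2 DAC/untreated ratio in MDA-MB-231 of the 189 genes past the filter, in order along chromosome 19, with alternate stretches shaded and dashed lines at 2-fold; ZNF560, at 0 untreated, is drawn at its lower bound. Red marks the 46 genes listed in HMLER, and the run of genes around or above the upper dashed line near rank 100 is the stretch from ZNF146 to ZNF573.

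A KRAB box was read from the coding sequence of 196 of the 233 genes with one. Past the filter, 35 of 156 genes with a KRAB box (22.4%) were more than 2-fold higher, with a median log2 change of 0.45, and 3 of 31 without one (9.68%), with a median of 0.08. Genes without the box were expressed at a higher level, with a median of 6.77 FPKM untreated against 2.17 FPKM, and the part of level in this difference was not tested. Of 77 KRAB genes on other chromosomes, 4 (5.19%) were above 2-fold, with a median of 0.15. The number of finger motifs had a median of 13 in the genes above 2-fold, 12 in those with a ratio of 1 to 2 and 10 in those at or under 1.

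Promoter CG density was also set against the change, with no test of the differences between classes. The observed/expected CG ratio had a median of 0.68 over 33 genes above 2-fold, 0.80 over 103 with a ratio of 1 to 2, and 0.78 over 32 at or under 1. Of genes with a promoter ratio under 0.6, 9 of 35 were above 2-fold, of those from 0.6 to 0.8 15 of 62, and of those at 0.8 or more 9 of 71. The median log2 changes of these classes were 0.36, 0.38 and 0.37.

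Of 9 genes of the set known as methylated in tumours, 5 passed the filter and all 5 had a ratio above 1, 2 of them above 2. Among all 189 genes 79.4% had a ratio above 1, and among all symbols 43.9%, so that 5 of 5 lies near the share of the whole set. Above 2-fold were 20.6% of the 189 and 11.2% of all symbols, and 2 of 5 is too few to compare. ZNF582 is given above, and ZNF577 went from 1.58 to 4.71 FPKM (2.98-fold). ZNF132 stood at 0.996 and 1.78 FPKM, ZNF671 at 1.44 and 1.85 FPKM, and the imprinted gene ZNF331 at 4.84 and 8.02 FPKM. The other 4 stayed low. ZNF154 was at 0.0830 and 0.464 FPKM (9 and 50 reads), ZNF382 at 0.0542 and 0.145 FPKM, ZNF471 at 0 and 0.0496 FPKM and ZNF677 at 0 and 0.0502 FPKM, the last from 7 reads after DAC. ZNF331 and ZNF577 are listed in HMLER. The list was drawn up with results of these data known, as were those that follow.

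The 4 genes listed as known to bind or silence retroelements changed little. ZNF91, which silences SVA elements, was at 1.57 and 1.31 FPKM, ZNF93, which binds LINE-1, at 2.20 and 2.32 FPKM, ZNF649 at 3.05 and 2.53 FPKM and ZNF765 at 2.83 and 3.01 FPKM. None of the 4 was above 2-fold or is listed in HMLER. Of all 189 genes, 20.6% were above 2-fold and 24.3% are listed, so a count of 0 among 4 says little. ZNF420, a p53 regulator, was at 2.28 and 4.15 FPKM (1.82-fold) and ZNF350, a BRCA1 partner, at 3.996 and 6.72 FPKM (1.68-fold), and both are listed in HMLER, at 2.48-fold and 2.25-fold.

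The genes of the machinery through which KRAB proteins act were mostly not higher. Of 20 genes for TRIM28, its partners, HP1 proteins, the HUSH complex and DNA methyltransferases, 19 passed the filter, 0 were above 2-fold in either direction, 5 had a ratio above 1 and the median log2 change was -0.16. These 19 had a mean of 5 FPKM or more. Of all symbols at that level, 35.0% had a ratio above 1 and the median was -0.17, so the median of the list lay near theirs. TRIM28, the common corepressor, stood at 315 FPKM untreated and 171 FPKM after DAC (0.542-fold). SETDB1 was at 6.51 and 5.78 FPKM and DNMT1, the target of the drug, at 128 and 96.7 FPKM. The largest ratios above 1 were those of DNMT3B (4.96 and 8.08 FPKM, 1.63-fold), CHD3 (36.7 and 52.4 FPKM, 1.43-fold) and DNMT3A (5.81 and 7.84 FPKM, 1.35-fold). Of the 20 genes CBX1 alone is listed in HMLER, and ZFP57 was at 0 in both MDA-MB-231 libraries.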

How the data were processed

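Polyadenylated RNA of 6 libraries was sequenced with Illumina TruSeq kits. The authors aligned reads to hg19 with TopHat2 and used Cuffdiff, run on Galaxy, to make the deposited FPKM of each RefSeq transcript, and tool versions are not given in the sources used here. The MDA-MB-231 table holds both libraries with Cuffdiff's bounds for all transcripts, and the HMLER table merged values for transcripts that rose. The fold changes, p-values, q-values and test statistics of the authors were not used.

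FPKM was summed per symbol, in HMLER over the listed transcripts only. Ratios used no pseudocount and genes with a mean of at least 0.5 FPKM. Members, lists and rules were chosen with earlier results of these data known. Genes named are the 12 highest and 6 lowest ratios, the 6 highest means, up to 12 higher in both lines, the 5 lowest MDA-MB-231 ratios among HMLER-listed genes and the lists, and others named were chosen after their values were seen. Reads were inferred from FPKM steps, with 204 bases taken off each length. Of the values above 0, 95.3% untreated and 95.2% after DAC lay within 0.1 of a whole read. For genes with several transcripts the reads were added up. Count tests were not run with 1 library per condition. Positions come from GENCODE v44 lifted to GRCh37, the assembly of hg19, and promoters from RefSeq GRCh38.p14 at the first listed start. Protein sequences were planned for the sequence features, and the longest open reading frame of the GENCODE transcripts was used in their place. A KRAB box was called where 28 residues shared at least 50% with the consensus of 240 windows, and a finger by its cysteine and histidine spacing. Overlapping genes, by whole gene span with introns, were found for 181 of the 237. The steps were tested on simulated data. Python 3.11.15 was run with pandas 2.3.3, numpy 2.4.6, matplotlib 3.10.9 and scipy 1.17.1. Other filters, pseudocounts, scaling, transcripts and gaps were tried.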

Additional observations from a re-analysis of the deposited data

Results flagged for a closer look

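ZNF28 and ZNF114 stood out for ratios on different sides of 1 in the cell lines. Both are listed as higher after DAC in HMLER, by 4.74-fold and 5.69-fold, while their DAC/untreated ratio in MDA-MB-231 was 0.848 for ZNF28 and 0.955 for ZNF114. The listed transcript of ZNF28 alone had a ratio of 0.764 in MDA-MB-231. The counting interval of ZNF114 spans 1 (0.882 to 1.03), so no change of it was detectable in MDA-MB-231, and its log2 change went from -0.07 to 0.02 when divided by the median ratio of all symbols. The difference between the lines was not tested, as MDA-MB-231 has 1 library per condition and the HMLER values are merged.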

How the results depend on the processing

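No paired analysis was possible because libraries of HMLER that share replicate numbers were deposited as merged values and each MDA-MB-231 condition is a single library, and for the same reason no library could be left out. The 39 genes above 2-fold in MDA-MB-231 became 70 of 229 with no filter, 20 of 130 at a mean of 2 FPKM, 3 of 52 at 5 FPKM (added after the data were seen), 16 with 1 FPKM added to both values and 2 where bounds had to be apart. In the other settings the count ran from 37 to 49. The 1 gene below 0.5-fold became 0 at a mean of 2 FPKM, with 0.1 or 1 FPKM added, divided by the median ratio of all symbols (0.9403) and with bounds apart. The median log2 change of 0.37 became 0.51 with no filter, 0.26 with 1 FPKM added and 0.25 at 5 FPKM, and it was above 0 in every setting. The 16 genes above 2-fold in both lines became 10 with 1 FPKM added and 12 to 21 in the other settings. The 51 genes listed in HMLER became 27 when both HMLER values had to reach 1 FPKM, and the 16 stretches became 9 with a gap of 2 Mb and 27 with a gap of 0.3 Mb (added after the data were seen), while the stretch with the most genes above 2-fold kept 12. Of 337 values of 44 named genes under an alternative, 34 left the counting interval, 20 of them with 1 FPKM added, and 2 changed sign, neither of a gene past 2-fold. These were ZNF114, from -0.07 to 0.02 when divided by the median ratio, and ZNF580, from 0.08 to -0.04 with the largest transcript alone. The cause of these shifts was not tested, beyond the fewer genes that a stricter filter leaves. A value added to both libraries shrinks ratios of low genes by construction, and ZNF542 went from a log2 change of 9.64 to 5.79 with 0.1 FPKM and 2.76 with 1 FPKM. Depth limits most the genes with few reads, such as ZNF582, at 0.0448 FPKM from 4 reads in the untreated MDA-MB-231 library. Low FPKM did not always mean few reads, as ZNF738 stood at 0.444 FPKM from 218 reads in that library.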
